A study of Mus musculus with 6 samples.

Results

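The 7 genes described here encode the core of the Fas death receptor route and of the caspase step it feeds. They are the receptor gene Fas, the adaptor gene Fadd, the kinase gene Ripk1, the initiator caspase genes Casp8 and Casp9, and the caspase regulator genes Cflar and Xiap. They were chosen by symbol, and all 7 were found among the 15861 genes of the count table. Polyadenylated RNA had been sequenced from germinal centre B cells of C57BL/6 mice, sorted on B220, GL7 and FAS, with 1 mouse per library and littermates in both groups. KO stands for 3 libraries of Lsd1 f/f mice that also carried a heterozygous Cre allele, named Cgamma-cre in the labels, and WT for 3 libraries of Lsd1 f/f mice lacking Cre. The name points to an immunoglobulin gamma constant region locus, which is active in B cells that switch class, so deletion can begin only once B cells are activated. Lsd1 f/f is thus common to both groups, and as no mouse with Cre on unfloxed alleles was analysed here, Cre itself and the deletion cannot be told apart.

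Fas is a cell surface receptor of the tumour necrosis factor receptor family. When Fas ligand on a T cell binds it, the death domain of Fas recruits the adaptor FADD, which brings procaspase 8 molecules together so that they cleave each other. Germinal centre B cells carry high Fas on their surface, which is why it serves as a sorting marker, and depend on c-FLIP, the product of Cflar, to hold the receptor complex in check. Caspase 9 is the initiator of the mitochondrial route and is activated on Apaf-1, and XIAP binds and blocks it. Because FAS protein was a gate for every library, the Fas transcript was read only in cells already selected for it.

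The libraries held 12325300 to 14327654 counts in KO and 3390805 to 5524852 in WT, so depth and genotype cannot be told apart. Levels are given as CPM, the count scaled to the library size after TMM normalisation, and 1 count was worth 0.0706 to 0.0759 CPM in KO and 0.195 to 0.312 CPM in WT. Kdm1a, the current symbol of Lsd1, had 81.9, 33.0 and 21.8 CPM in KO libraries 1, 2 and 3, against 134, 85.2 and 92.6 CPM in WT libraries 1, 2 and 3. KO 1 thus lay close to the lowest WT library for the deleted gene, and values without KO 1 stand beside the fold change of each of the 7 genes. Its count covers the whole gene, undeleted exons too. The 10 germinal centre B cell markers were all present and summed to between 7455 and 7680 CPM of the library total in KO and between 6567 and 10019 in WT, with Ms4a1 (CD20) the most abundant on average. The 10 macrophage and dendritic markers, led by Csf1r, summed to 203, 132 and 1754 CPM in KO, against 198, 833 and 1750 in WT. T and NK markers came almost wholly from Cd2, which had 107 to 166 CPM in KO and 135 to 169 in WT, while neither Cd3d nor Cd3g exceeded 15 counts in any library. Plasma cell markers, mostly Jchain, summed to between 1898 and 2532 CPM in KO and between 1416 and 2284 in WT, and neutrophil markers such as S100a8 stayed at or below 1.14 CPM in KO and 0.724 in WT.

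Casp8 and Cflar were the pair of genes whose KO libraries all lay above the WT libraries in TMM-normalised CPM, as did those of 10% of all genes tested. By CPM of the library total Casp8 still did, while Cflar overlapped. The 250 bases upstream of the annotated start are shown for both and for Fas, the receptor on which the cells were sorted. They come from RefSeq on GRCm38.p6 (mm10), 5′ to 3′, and capitals mark letters that match any of the searched motifs on either strand. None of the 3 windows holds an annotated exon base.
Fas, chr19:34290409-34290658, plus strand: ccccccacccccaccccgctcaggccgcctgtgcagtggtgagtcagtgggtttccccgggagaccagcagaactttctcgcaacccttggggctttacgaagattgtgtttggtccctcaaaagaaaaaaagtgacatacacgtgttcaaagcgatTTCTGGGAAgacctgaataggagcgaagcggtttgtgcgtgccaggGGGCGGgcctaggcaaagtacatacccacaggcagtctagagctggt
Casp8, chr1:58802252-58802501, plus strand: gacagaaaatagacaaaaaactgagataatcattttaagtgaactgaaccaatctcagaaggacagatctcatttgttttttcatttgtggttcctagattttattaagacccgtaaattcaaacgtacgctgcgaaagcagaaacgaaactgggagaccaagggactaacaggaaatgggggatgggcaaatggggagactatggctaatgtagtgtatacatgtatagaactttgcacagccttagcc
Cflar, chr1:58711241-58711490, plus strand: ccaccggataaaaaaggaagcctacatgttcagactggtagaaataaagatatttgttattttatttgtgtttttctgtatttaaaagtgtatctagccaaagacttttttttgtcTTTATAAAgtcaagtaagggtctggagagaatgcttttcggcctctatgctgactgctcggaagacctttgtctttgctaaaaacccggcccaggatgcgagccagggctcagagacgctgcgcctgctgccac
The motifs were the NF-kB consensus site, GGGCGG (the GC box), TATAAA and TTCNNNGAA (a STAT-type palindrome), found at least once in 7.25%, 32.7%, 12.4% and 7.02% of 32841 promoter windows of the same length. The Fas window held 1 GC box, beginning 47 bases before the start, and 1 TTCNNNGAA at 93 bases. The Casp8 window held none of the 4 motifs and 5 CpG dinucleotides, against a median of 6 over all windows, and the Cflar window held overlapping TATAAA matches on opposite strands, at 134 and 132 bases, and 7 CpG. These matches describe letters only. The RefSeq start of Casp8 lies within the longer gene model used below, so another start may be in use in these cells.

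None of the 7 genes passed the test over all genes. The question was whether loss of Lsd1 in germinal centre B cells comes with other levels of the Fas route transcripts. At an adjusted p under 0.05 (edgeR quasi-likelihood test, Benjamini-Hochberg over 10926 genes), 0 of the 7 passed, where 0.0824% of all genes did, and 0 of the 7 passed by DESeq2 (1.12% of all genes), by limma-voom (0.0183%) or by edgeR without KO 1 (0.226%). At an unadjusted p under 0.05, 2 of the 7, Casp8 and Cflar, were on the higher side in KO by edgeR and none on the lower. Of all genes 7.1% were on the higher side, 5.5% on the lower and 12.6% on either. The count of members was 2 by DESeq2 (13% of all genes) and 1 by limma-voom (11.1%). In TMM-normalised CPM, the KO and WT libraries did not overlap for 3 of the 7 (Casp8 and Cflar higher, Fadd lower in KO), against 18% of all genes. Whether these counts differ from those shares was not tested. Which genes separated depended on the scaling. By CPM of the library total, Cflar overlapped (25.4 in KO 2, 25.6 in WT 1), and so did Fadd (25.7 in KO 2, 25.5 in WT 2). Ripk1 then did not overlap (35.2 in KO 2, 34.4 in WT 2), and Casp8 still did not. The members' median log2 fold change was 0.28 and that of all genes tested 0.01. In RNA from a bulk sort, fewer cells with a transcript and less of it per cell cannot be told apart.

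**Figure D1:**
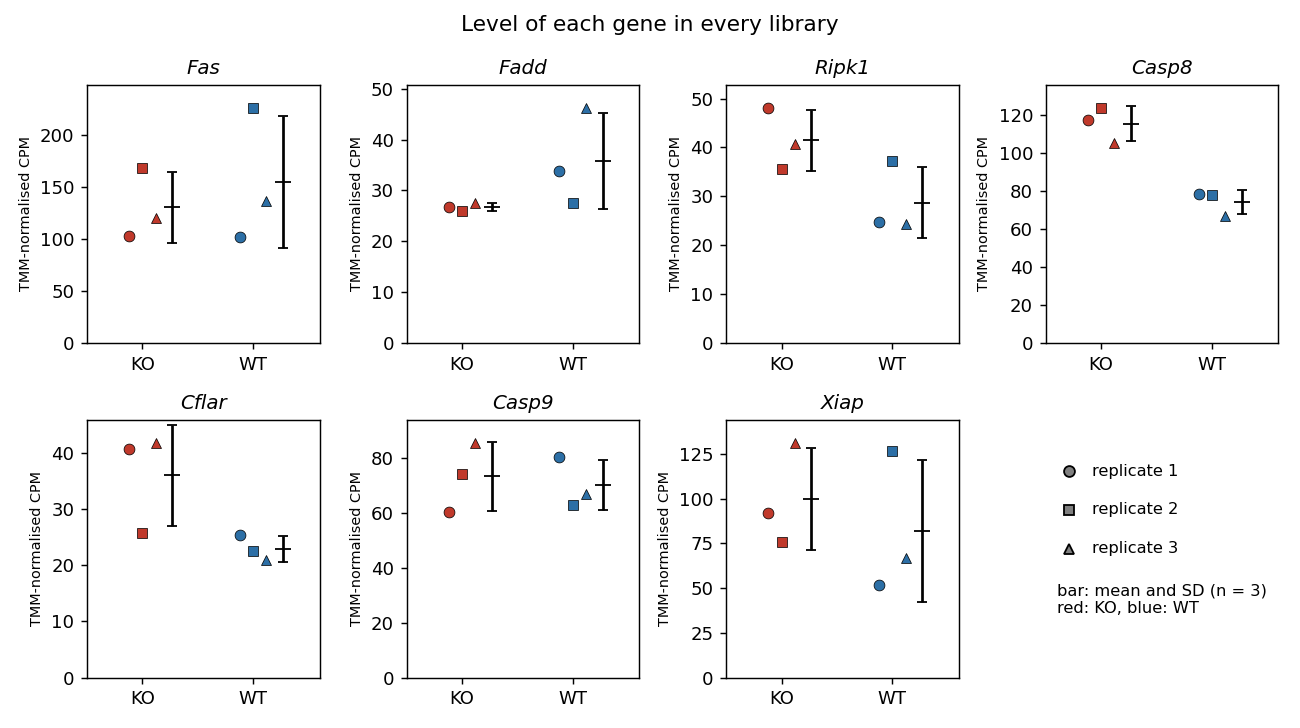
TMM-normalised CPM of the 7 genes in every library, with KO (red) left of WT (blue) in each panel, the mark giving the replicate number and the bar the mean and SD of 3 libraries. Casp8 lies between 105 and 124 CPM in KO and between 66.7 and 78.3 CPM in WT, while Fas and Xiap spread widely within both groups.

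Fas (chromosome 19, 34290666 to 34327772, plus strand, mm10) encodes the receptor itself. It had 103, 168 and 120 CPM in KO libraries 1, 2 and 3, and 102, 225 and 137 CPM in WT libraries 1, 2 and 3. The groups overlapped from end to end, with the highest value in WT 2 and the lowest in WT 1. The means were 130 ± 34.1 CPM in KO and 155 ± 63.7 CPM in WT (SD, n = 3 each), and the log2 fold change was -0.25 (SE 0.30, 95% interval -0.92 to 0.43, adjusted p = 0.789, edgeR). The interval thus leaves room for KO levels between 0.528 and 1.34 times those of WT. It was -0.10 without KO 1. Without WT 2 it was 0.13, so the side on which KO lay rested on that library. The counting error was small beside this spread: the 388 counts of WT 1 give a 95% Poisson interval of 92.0 to 113 CPM and the 1153 counts of WT 2 one of 213 to 239 CPM. The highest library of each group for Fas, KO 2 and WT 2, had summed macrophage markers of 132 and 833 CPM, and the lowest, KO 1 and WT 1, had 203 and 198 CPM; the part of such cells in the spread was not tested.

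Fadd (chromosome 7, 144577318 to 144582463, minus strand) encodes the adaptor that links the death domain of Fas to caspase 8. It had 26.8, 26.0 and 27.4 CPM in KO and 33.9, 27.6 and 46.1 CPM in WT. All KO libraries lay below all WT libraries, but KO 3 at 27.4 and WT 2 at 27.6 were almost equal. Their 95% Poisson intervals, 24.8 to 30.3 CPM in KO 3 and 23.2 to 32.5 CPM in WT 2, overlap, so the gap between the groups is within counting error. The 3 KO libraries were tightly grouped (26.7 ± 0.74 CPM, SD), unlike those of WT (35.9 ± 9.44 CPM). The log2 fold change was -0.42 (SE 0.24, 95% interval -0.93 to 0.10, adjusted p = 0.488, edgeR), -0.44 without KO 1 and -0.20 without WT 3, the library with the highest level. Exons of Faddos, an antisense gene, cover 239 bases or 6.12% of the Fadd exons, and since no strand setting is given, their reads cannot be told apart.

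Ripk1 (chromosome 13, 34002363 to 34037147, plus strand) encodes the kinase RIPK1, a scaffold of NF-kB signalling at death receptors that caspase 8 cleaves and that starts necroptosis when caspase 8 is blocked. It had 48.0, 35.6 and 40.7 CPM in KO and 24.7, 37.1 and 24.3 CPM in WT. WT 2 lay within the KO range and above KO 2, and the other WT libraries lay below every KO library. Its log2 fold change was 0.52 (SE 0.24, 95% interval -0.01 to 1.05, adjusted p = 0.404, edgeR), 0.40 without KO 1 and 0.76 without WT 2. Ripk1 exons share 241 bases with Serpinb6a on the opposite strand and 511 bases with a processed pseudogene on its own strand, which makes a small part of its counts uncertain. It was 0.25 after correction of each library for exon length and GC content by a spline.

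Casp8 (chromosome 1, 58795374 to 58847503, plus strand), the initiator caspase of the receptor complex, was the member with the smallest p. It had 117, 124 and 105 CPM in KO and 78.3, 77.8 and 66.7 CPM in WT. Every KO library lay well above every WT library: the 95% Poisson interval of the lowest KO library was 100 to 111 CPM and that of the highest WT library 69.6 to 87.7 CPM. The means were 115 ± 9.23 CPM in KO and 74.3 ± 6.54 CPM in WT (SD, n = 3 each), a ratio of 1.56. On the log2 scale the difference was 0.64 (SE 0.19, 95% interval 0.22 to 1.06), with an unadjusted p of 0.00653. It ranked 268th of 10926 genes by p, and its adjusted p was 0.266 (edgeR), so it did not pass. Casp8 was the member that moved least between settings. Its log2 fold change was 0.62 without KO 1 and ran from 0.53 to 0.75 over 16 alternatives, in none of which it passed (lowest adjusted p 0.116, by DESeq2).

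Cflar (chromosome 1, 58711508 to 58758884, plus strand) encodes c-FLIP, which resembles caspase 8 but has no protease activity of its own and limits its activation. It lies upstream of Casp8 on the same strand, with 36.5 kb between them. Cflar had 40.6, 25.7 and 41.7 CPM in KO and 25.5, 22.5 and 20.9 CPM in WT. KO 1 and KO 3 were high, and KO 2 was level with WT 1. The 364 counts of KO 2 give a 95% Poisson interval of 23.1 to 28.5 CPM and the 97 counts of WT 1 one of 20.7 to 31.1 CPM, so this separation too is within counting error. The means were 36.0 ± 8.96 CPM in KO and 22.9 ± 2.33 CPM in WT (SD, n = 3 each). The log2 fold change was 0.65 (SE 0.25, 95% interval 0.11 to 1.19), with an unadjusted p of 0.0232 and an adjusted p of 0.319 (edgeR). It was 0.55 without KO 1 and 0.85 without KO 2. It was 0.25 after the same length and GC correction. With every library thinned to the smallest total, its median over 11 draws was 0.67 (0.38 to 0.92). The draw used among the alternatives gave 0.38, the lowest of them.

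In each library the count of Cflar can be set against that of Casp8, a ratio that needs no scaling for library size. It was 0.346, 0.208 and 0.396 in KO and 0.326, 0.289 and 0.313 in WT. KO 2 had the lowest ratio of the 6 libraries and KO 3 the highest, so the KO values lay on both sides of the WT values. The difference of mean log2 ratios was -0.02, and a two-sided exact permutation test gave p = 1 (adjusted over both ratios tested, 1), where 3 libraries against 3 allow no p below 0.1. It was -0.11 without KO 1, and the sign turned to 0.26 without KO 2. With every library thinned to the smallest total it ran from -0.41 to 0.37 over 11 draws (median -0.02), so counting error alone moves it widely at that depth. The inhibitor and the protease transcripts both had higher KO means, and no shift of one against the other was detectable in these libraries.

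Casp9 (chromosome 4, 141793612 to 141815976, plus strand), the initiator caspase of the mitochondrial route, had 60.4, 74.5 and 85.6 CPM in KO and 80.6, 63.1 and 67.0 CPM in WT. The groups overlapped almost fully. A log2 fold change of 0.07 was fitted (SE 0.21, 95% interval -0.40 to 0.53, adjusted p = 0.938, edgeR), and 0.18 without KO 1. The interval places the KO level between 0.759 and 1.44 times that of WT. It is the member with the smallest fold change in either direction. Its exons share 94 bases with the pancreatic protease genes Cela2a and Ctrc on the other strand.

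Xiap (chromosome X, 42059679 to 42109656, plus strand) encodes the X-linked inhibitor of apoptosis, which binds caspases directly. It had 92.3, 75.9 and 131 CPM in KO and 51.7, 127 and 67.0 CPM in WT. WT 2 and KO 3 were high and the other libraries were spread between 51.7 and 92.3 CPM. The log2 fold change was 0.28 (SE 0.34, 95% interval -0.49 to 1.05, adjusted p = 0.789, edgeR). It was 0.34 without KO 1, 0.75 without WT 2 and 0.02 without KO 3, so its size rested on single libraries. Once corrected for length and GC content it was 0.05. The ratio of Xiap to Casp9 counts was 1.53, 1.02 and 1.53 in KO and 0.642, 2.01 and 1.0 in WT. KO lay within the WT range throughout, and the difference of mean log2 ratios was 0.30 (two-sided exact permutation p = 0.6, adjusted p = 1). It was 0.20 without KO 1 and -0.09 without WT 1.

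**Figure D2:**
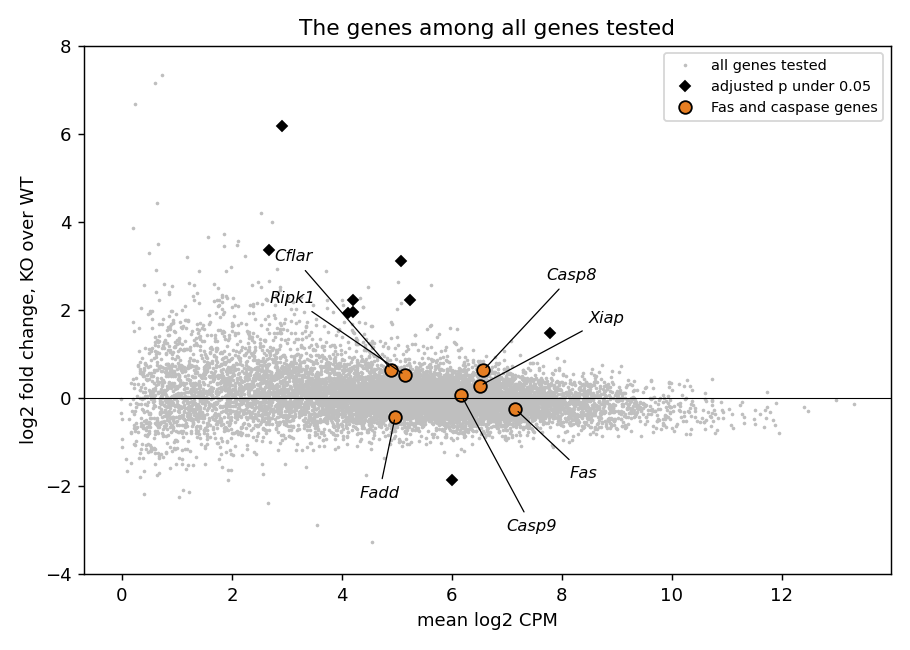
Log2 fold change (KO over WT) against mean log2 CPM for the 10926 genes tested (grey), the 9 genes with an adjusted p under 0.05 (black diamonds) and the 7 members (orange). The members lie within the grey band, from -0.42 for Fadd to 0.65 for Cflar.

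Levels of different genes were compared per kilobase of exon. In KO the order was Fas (63.2 CPM per kb), Casp8 (39.9), Casp9 (14.1), Xiap (10.5), Fadd (6.85), Ripk1 (4.97) and Cflar (2.84). In WT it was Fas (75.0 CPM per kb), Casp8 (25.7), Casp9 (13.5), Fadd (9.19), Xiap (8.65), Ripk1 (3.44) and Cflar (1.81). Among neighbours in this order, only Casp9 and Xiap overlapped between libraries in KO and only Fadd and Xiap in WT. Fas and Casp8 thus stood above the other 5 genes in every library of both groups. The place of Cflar depends on the length used, since its 13 annotated transcripts, 4 of them coding, span 12669 exon bases, against 1771 bases in the transcript with the longest coding sequence. With the length of that transcript for each gene, Cflar averaged 20.3 ± 5.06 CPM per kb in KO and 13.0 ± 1.32 in WT (SD, n = 3), near Casp9 at 18.9 ± 3.24 and 18.0 ± 2.36. Fas (88.0 CPM per kb in KO and 104 in WT) and Casp8 (62.5 and 40.2) kept the first 2 places. The counts do not tell which transcripts were made.

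**Figure D3:**
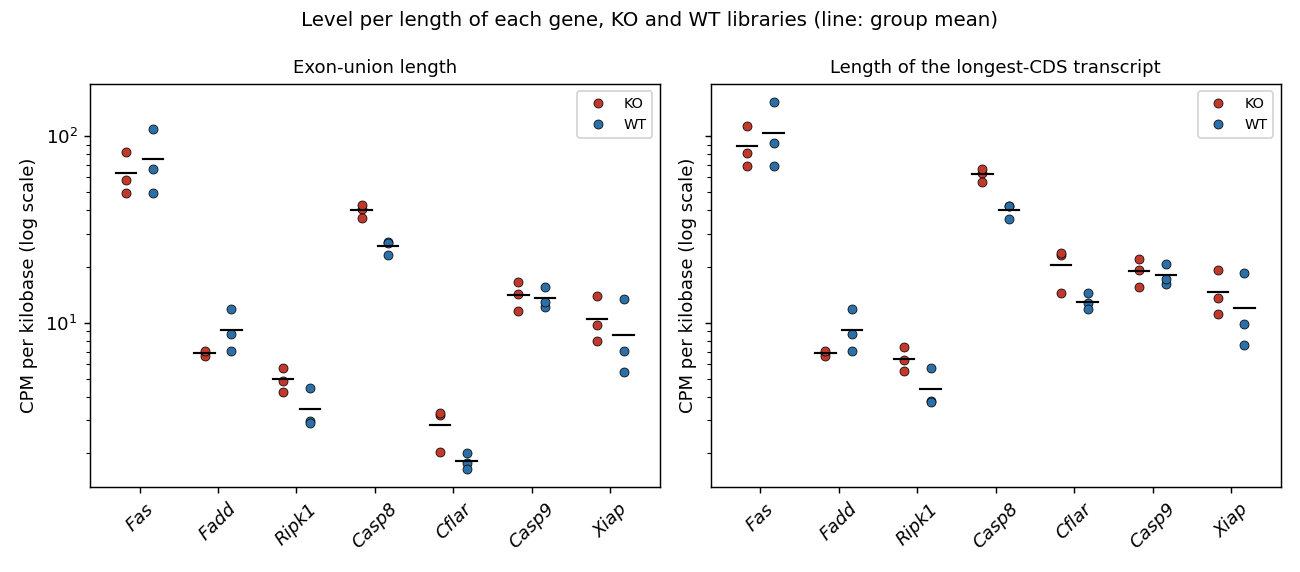
CPM per kilobase (log scale) of each gene in the KO (red) and WT (blue) libraries, by the length of all annotated exons (left) and by that of the transcript with the longest coding sequence (right); lines are group means. Fas and Casp8 are highest with both lengths, and Cflar moves between 2.84 and 20.3 CPM per kb in KO with the length used.

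Across the 6 libraries, the gene whose log2 CPM ran most closely with each member was Paip2 for Fas (Pearson r = 0.995), Flot2 for Fadd (0.998), Ncapg2 for Ripk1 (0.995), Ddx19b for Casp8 (0.990), Zfp652 for Cflar (0.994), Tmem268 for Casp9 (0.991) and Rab18 for Xiap (0.993). The search covered 8517 genes with a mean log2 CPM of at least 3. These values describe 6 points that share their libraries and depth, and each was picked as the highest of 8517. Whether unrelated genes would reach values this high was not tested. The number of genes with r above 0.95 ran from 3 for Casp9 (0.035% of those searched) to 130 for Ripk1 (1.53%).

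The wider pathway was read from 6 lists of 69 genes, of which 67 were in the table and 58 passed the filter on low counts. At an adjusted p under 0.05, 0 of the 58 passed by edgeR, DESeq2 or limma-voom, and 11 had an unadjusted p under 0.05 by edgeR, 9 higher and 2 lower, against 7.1% and 5.5% of all genes. The count was 10 by DESeq2 (13% of all genes) and 7 by limma-voom (11.1%). By edgeR it was 4 without KO 1 (7.74%) and 22 without WT 2 (22.1%). With the length and GC trend removed it was 5, and the share of all genes there was not taken. Of 56 listed genes tested with and without KO 1, 51 kept their direction without it. With all libraries, the median log2 fold change of the 58 was 0.02, against 0.01 over all genes tested. The groups did not overlap for 9 genes on the higher side and 8 on the lower, against 10% and 7.95% of all genes.

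The ligand of Fas was hardly present. Fasl had 2, 3 and 0 counts in KO and 0, 0 and 1 in WT, too few for a test. Both groups were thus at or under the 3 counts that a 0 allows. Of the 10 death receptor and ligand genes 6 were tested, with a median of 0.12. The TRAIL receptor gene Tnfrsf10b had at most 24 counts in a library and was not tested. Its ligand gene Tnfsf10 had 3.34, 0.92 and 2.5 CPM in KO and 0.26, 0.59 and 1.56 CPM in WT (log2 fold change 1.53, SE 0.76), on 1 to 44 counts. Tnf, which signals through RIPK1, had 18.6 to 21.2 CPM in KO and 16.2 to 21.8 in WT (log2 fold change 0.14, SE 0.25). Its receptor gene Tnfrsf1a had 0.46, 0.92 and 13.3 CPM in KO and 3.94, 8.60 and 17.5 CPM in WT. Its high libraries, KO 3 and WT 3, were those with the largest sums of macrophage markers (1754 and 1750 CPM), and the part of such cells in its level was not tested. Tnfrsf1a had a fold change of -1.02 on the log2 scale (SE 1.41, adjusted p = 0.824, edgeR). Without KO 3 it was -3.85 and passed (adjusted p = 0.0489, edgeR; the range over all fits was 0.0489 to 0.997).

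Among 21 adaptors and regulators of the receptor complexes, all tested, the median was -0.15. Of these, 8 were above 0 and 13 below, where 51.3% of all genes tested were above 0. Tnfaip3, which encodes the ubiquitin-editing enzyme A20 that restrains NF-kB and RIPK1 signalling, had 55.8, 37.9 and 46.5 CPM in KO and 29.7, 26.6 and 28.1 CPM in WT. The groups did not overlap, and its log2 fold change of 0.73 (SE 0.22, adjusted p = 0.271, edgeR) was the largest of the list. Cyld, a deubiquitinase of RIPK1, had 172, 161 and 159 CPM in KO and 120, 147 and 90.7 CPM in WT (log2 fold change 0.46, SE 0.22). On the other side, Traf2, the adaptor of tumour necrosis factor receptors, had 69.0, 73.3 and 61.3 CPM in KO and 105, 76.8 and 116 CPM in WT (log2 fold change -0.55, SE 0.21, adjusted p = 0.331, edgeR). Tradd, a death domain adaptor, overlapped between the groups (-0.52, SE 0.25). Ripk3, the kinase of necroptosis, had 82.3 to 92.4 CPM in KO and 93.2 to 114 in WT (-0.29, SE 0.19). Mlkl, which encodes the pore-forming effector downstream of RIPK3, had only 2 to 24 counts in KO and 2 to 6 in WT.

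Of 6 other caspase genes listed, 4 were tested, and the 4 had log2 fold changes from 0.03 to 0.62 with no gap between the groups. Casp1, which encodes the inflammatory caspase that matures interleukin-1 beta, had 72.6, 111 and 84.3 CPM in KO and 39.4, 113 and 65.5 CPM in WT (log2 fold change 0.29, SE 0.35). Casp6 had 26.4, 59.3 and 50.8 CPM in KO and 34.9, 50.04 and 34.6 CPM in WT (0.19, SE 0.30), with the lowest level of all 6 libraries in KO 1. Casp2 had 130 to 168 CPM in KO and 124 to 158 in WT (0.03, SE 0.20). Casp4, also an inflammatory caspase gene, had a value of 0.62 (SE 0.64). Casp4 ranged from 4.99 to 33.6 CPM among the WT libraries alone.

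The apoptosome and mitochondrial list had 7 tested genes and a median of -0.13. Apaf1, the scaffold on which caspase 9 is activated, had 67.6, 57.4 and 74.4 CPM in KO and 50.7, 54.7 and 46.8 CPM in WT (log2 fold change 0.39, SE 0.20, adjusted p = 0.453, edgeR). Its partner cytochrome c (Cycs) had a value of -0.13 (SE 0.25), the XIAP antagonists Diablo and Htra2 had -0.17 (SE 0.20) and -0.44 (SE 0.22), and Bid, the caspase 8 substrate that links both routes, had -0.08 (SE 0.21). Endog, a mitochondrial nuclease gene, lay lowest (log2 fold change -1.28, SE 0.45), at 1.72 to 2.28 CPM in KO and 3.94 to 5.61 in WT, on 15 to 31 counts.

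The inhibitor of apoptosis genes had 7 tested members and a median of 0.52, the value of Birc3. Of the 7, 6 were above 0, as were 51.3% of all genes tested. Whether the 6 differ from that share was not tested. Birc3, which encodes the ubiquitin ligase cIAP2, had 154, 92.5 and 102 CPM in KO and 74.8, 87.8 and 80.4 CPM in WT (log2 fold change 0.52, SE 0.23, adjusted p = 0.387, edgeR). Its groups did not overlap, with KO 1 far above the rest, and the fold change was 0.25 (SE 0.24) without KO 1. Birc2, which encodes cIAP1, overlapped (0.26, SE 0.30), and so did the mitotic gene Birc5 or survivin (-0.29, SE 0.21). Xaf1, a gene for an XIAP binding protein, overlapped too (0.05, SE 0.41) and had -0.25 (SE 0.44) without KO 1. Naip2 had 13.4, 5.15 and 12.6 CPM in KO and 2.36, 5.28 and 4.68 CPM in WT (1.33, SE 0.46, adjusted p = 0.299, edgeR). It belongs to a cluster of near-identical Naip copies, between which reads may be split.

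Among 13 tested substrates and execution factors the median was -0.03. The nuclease gene Dffb had 26.3, 25.8 and 28.6 CPM in KO and 34.9, 32.8 and 37.1 CPM in WT (log2 fold change -0.38, SE 0.20, adjusted p = 0.466, edgeR), while Dffa, the gene of its inhibitor, overlapped (-0.12, SE 0.20). Rock1, a kinase whose cleavage drives membrane blebbing, had 131, 84.4 and 84.2 CPM in KO and 52.8, 91.1 and 53.0 CPM in WT. Its groups overlapped, and its log2 fold change was 0.60 (SE 0.27), or 0.36 (SE 0.28) without KO 1. Parp1 had -0.02 (SE 0.21), Panx1, a channel opened by caspases, -0.09 (SE 0.22), and Xkr8, a scramblase activated by them, -0.98 (SE 0.60) on 6 to 22 counts.

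**Figure D4:**
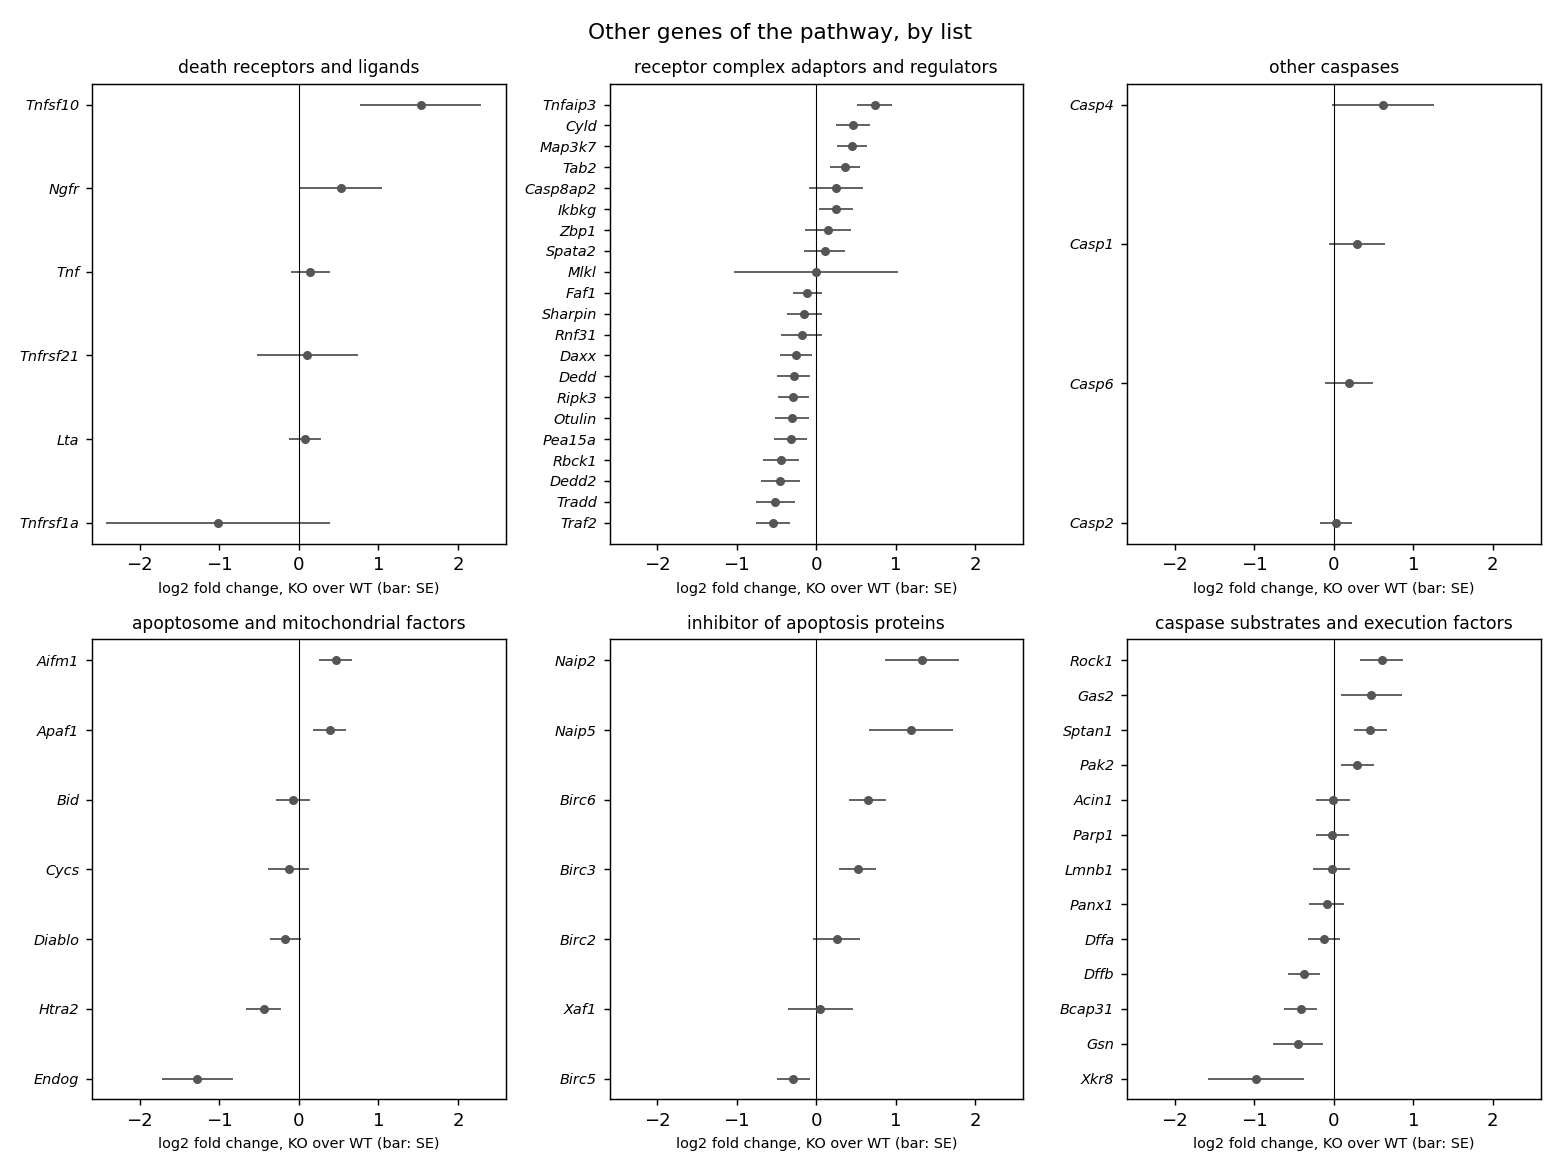
Log2 fold change (KO over WT) with its standard error for the 58 other pathway genes tested, by list. The 4 other caspases all lie above 0, as do 51.3% of all genes tested. The remaining lists fall on both sides, and none of the 58 had an adjusted p under 0.05.

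The fold changes of the 7 genes depended unevenly on single libraries and on the processing. Casp8 kept its side and most of its size in all 16 alternatives. Fadd (-0.58 to -0.20), Ripk1 (0.25 to 0.76) and Cflar (0.25 to 0.85) kept their side in all 16 as well but varied in size. Xiap ran from 0.02 to 0.75, and Fas and Casp9 fell on both sides of 0.

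**Figure D5:**
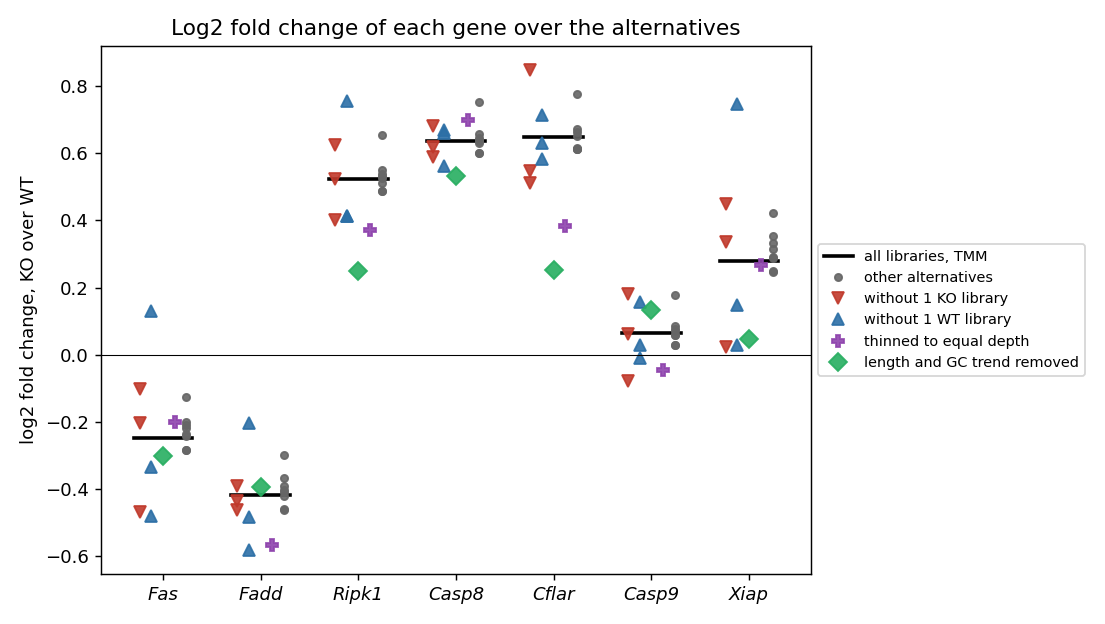
Log2 fold change (KO over WT) of each of the 7 genes with all libraries and TMM scaling (black line) and under 16 alternatives (marks). Casp8 stays between 0.53 and 0.75, whereas Cflar and Ripk1 come down to 0.25 after correction for length and GC content.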

How the data were processed

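Raw read counts per gene symbol were deposited by the authors in 1 table with 1 column per mouse, 3 KO and 3 WT, and groups came from the sample titles. Per the submitters' processing notes, the tools were STAR 2.5.2, featureCounts 1.5.2 and CASAVA and the build mm10. Which annotation, strand setting and rule for multiply mapped reads applied is not given in the sources used here. Long genes collect more counts, and the WT libraries, being shallower, carry more counting error. Intervals on single libraries are exact Poisson intervals (95%) and cover counting error only.

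Differences were tested on those counts by edgeR 4.0.16 under R 4.3.3 (TMM, filterByExpr, robust quasi-likelihood fit, two-sided, Benjamini-Hochberg over 10926 genes, threshold 0.05). Standard errors and intervals are those implied by the F statistic. P-values set the difference between the groups against the spread between libraries of different mice, which includes counting error. The alternatives were other scalings, no filter, a floor of 5 CPM in 3 libraries or more, limma-voom (limma 3.58.1), DESeq2 1.42.0, a replicate block, each library left out in turn, thinning, and removal of a spline trend on exon length and GC content. edgeR, DESeq2 and limma-voom were first tried on simulated counts. Within groups, the chi-square per degree of freedom between libraries was 14.4 to 50.9, so no library was counted as a repeat of another. Coordinates and lengths are from GENCODE vM21 (98.4% of tested genes matched).

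The members, lists and alternatives were chosen with earlier results of these data known. The genes named are the 7 members, Kdm1a, listed genes marked by role, the gene with the largest absolute log2 fold change of each list, the closest gene to each member and the most abundant marker of each cell type. Some listed genes are not reported here and stand in no count over the lists. Cd3d, Cd3g, Irf4, Prdm1, Sdc1 and Xbp1 stand outside that rule, chosen after seeing their values. The length of the transcript with the longest coding sequence was added after the data were seen.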

Additional observations from a re-analysis of the deposited data

How the results depend on the processing

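None of the 7 genes passed the threshold in any of 112 gene values under 16 alternatives, and 108 kept their direction. The exceptions were Fas, whose log2 fold change was 0.13 without WT 2 (range over the 6 fits with 1 library left out -0.48 to 0.13), and Casp9, which was -0.045 in the thinned draw used (-0.052 to 0.25 over 11 draws, 8 of them above 0) and ran from -0.077 to 0.18 with 1 library left out; both intervals include 0 with all libraries, and the cause was not tested. Without WT 2, 5 of the 7 genes had an unadjusted p under 0.05, as did 22.1% of all genes and 22 listed genes. The difference in mean log2 ratio with 1 library left out ran from -0.20 to 0.26 for Cflar to Casp8 and from -0.085 to 0.74 for Xiap to Casp9. Thinned, they were -0.41 and 0.39 in the draw used (-0.41 to 0.37 and 0.080 to 0.46 over 11 draws). The count of genes called among all tested was 9. It was 18 with library size alone, which also moved the median log2 fold change of all genes to 0.13, 93 with no filter, 122 by DESeq2, 2 by limma-voom and 34 with the length and GC trend removed. With 1 library left out it ran from 1 to 24, and that of the other pathway genes from 0 to 1.

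With the replicate number as a block, 21 genes were called and none of the 7. The deviations of same-numbered KO and WT libraries correlated at 0.34, -0.05 and 0.44 (across genes), KO 2 ran closer to WT 1 than to WT 2, and the labels do not say that a number marks a shared litter or day. By transcript length instead of all exons, 10 of 14 group means per kilobase moved by more than the SD between libraries. Depth limits Cflar and Ripk1 most, with 67 to 115 and 78 to 190 counts in the WT libraries.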
